A study of Drosophila melanogaster with 3 samples.

Results

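Upstream peaks at one-way promoters were reproducible binding regions of a CG8944-eGFP fusion protein whose summit lay within 500 bp of the nearest transcription start site (TSS), on its upstream side, at a start with no head-to-head start of another gene within 1000 bp. Of 3511 reproducible peaks, 1907 had a summit within 500 bp of a TSS and 1561 of these lay upstream of it. A head-to-head start was present for 762 of them, and the other 799 are the peaks described here (22.8% of the reproducible list). They belonged to 756 genes, of which 719 had 1 such peak, 33 had 2 and 4 had more. Protein-coding genes accounted for 746 peaks, non-coding RNA genes for 49, tRNA genes for 2, and a snoRNA and a snRNA gene for 1 each. The class was set by position and annotation, not by the strength of the signal, but every peak had already passed the authors' threshold on reproducibility. In the pooled list, 799 of 2530 entries of the class were reproducible (31.6%), where 14.7% of all pooled entries were. Nothing is read from that share, since membership requires it.

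The chromatin came from whole Drosophila melanogaster embryos of both sexes, 0 to 24 h old, of a transgenic line in which CG8944 carries green fluorescent protein at its C terminus. DNA was recovered with an antibody against GFP after sonication, in 3 biological replicates of 1 group. No control library was analysed here, and embryos of mixed ages were pooled, so that the tissue or stage of a binding event cannot be told apart. The lists hold no read counts, and the depth behind each value is therefore unknown. The deposited signal has no stated scale and is used only to rank peaks within 1 list. Because there is 1 group, comparisons are between classes of regions, made within each replicate on its 3511 strongest entries (787, 763 and 808 of them in the class). An exact sign-flip permutation test over the 3 replicate differences cannot give a two-sided p below 0.25, so no difference can pass a threshold of 0.05.

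A promoter is the stretch of DNA at which transcription of a gene begins. In the compact fly genome many genes share a divergent promoter, from which neighbours are read in opposite directions, whereas a one-way promoter serves a single direction. Housekeeping promoters in flies often carry the DNA replication-related element (DRE), bound by the factor DREF, the related core recognised by the insulator protein BEAF-32, or the elements called Motif 1 and Ohler motifs 6 and 7. Promoters of developmental genes more often carry a TATA box, an initiator or repeats bound by GAGA factor. Genes with several start sites have internal promoters as well, which lie inside the gene itself. CG8944 is annotated as a protein-coding gene on chromosome X. It had no reproducible peak at its own promoter, where the pooled list held 1 weak entry, 47 bp upstream of the start, with a signal of 79.1. That entry was classed as divergent, so this promoter lies outside the class by the rule.

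The summit sequences of 6 of the strongest peaks are shown first, because the strongest peaks had the lowest GC content of the class. Each runs 5' to 3' in the direction of the gene, from 50 bases upstream to 50 bases downstream of the summit, in the RefSeq copy of the assembly (release 6, as dm6). Capitals mark the hexamer CTTAAA on either strand, which reads TTTAAG when it lies on the other one.
CG14100, chr3L:19590570-19590670, minus strand: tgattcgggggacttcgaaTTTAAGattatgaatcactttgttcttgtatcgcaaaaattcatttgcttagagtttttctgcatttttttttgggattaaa
ph-p, chrX:2137304-2137404, minus strand: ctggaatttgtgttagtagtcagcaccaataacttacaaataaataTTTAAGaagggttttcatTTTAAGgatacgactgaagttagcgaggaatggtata
lncRNA:CR44619, chrX:12751407-12751507, plus strand: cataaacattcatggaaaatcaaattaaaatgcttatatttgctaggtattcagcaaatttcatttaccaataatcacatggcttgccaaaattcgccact
CG31145, chr3R:23669765-23669865, minus strand: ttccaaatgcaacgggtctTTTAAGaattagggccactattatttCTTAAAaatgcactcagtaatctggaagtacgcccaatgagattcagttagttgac
larp, chr3R:28326546-28326646, minus strand: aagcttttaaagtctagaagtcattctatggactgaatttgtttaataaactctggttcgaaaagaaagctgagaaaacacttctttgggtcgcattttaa
Atf3, chrX:1275463-1275563, minus strand: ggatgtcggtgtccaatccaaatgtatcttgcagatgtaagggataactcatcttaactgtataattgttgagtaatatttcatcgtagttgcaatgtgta
The hexamer was present in 3 of these 6 windows. CG14100 also had a match to CGATA, the BEAF-32 core, close to its summit, where it reads TATCG on the strand shown.

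The known elements are shown at peaks of lower rank, each taken from the 5 strongest peaks with a match, with capitals for the element named. DRE is TATCGATA.
eEF1gamma, chr3R:29220108-29220208, plus strand: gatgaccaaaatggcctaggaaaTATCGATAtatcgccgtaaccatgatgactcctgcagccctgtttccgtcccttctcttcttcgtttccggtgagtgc
RpS29, chr3R:9777974-9778074, plus strand: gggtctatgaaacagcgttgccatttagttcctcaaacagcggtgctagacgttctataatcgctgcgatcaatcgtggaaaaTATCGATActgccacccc
Ohler motif 7 was found at these peaks.
Fancm, chr3R:21482017-21482117, plus strand: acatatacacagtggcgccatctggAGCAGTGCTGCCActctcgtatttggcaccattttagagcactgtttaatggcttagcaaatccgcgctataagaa
Abl, chr3L:16647952-16648052, minus strand: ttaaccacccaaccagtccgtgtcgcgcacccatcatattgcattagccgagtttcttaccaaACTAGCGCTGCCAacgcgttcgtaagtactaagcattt
pico, chrX:19848604-19848704, minus strand: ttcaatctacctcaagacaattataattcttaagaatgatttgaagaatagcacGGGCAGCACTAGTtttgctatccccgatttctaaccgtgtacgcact
The Motif 1 core is GGTCACAC, or GTGTGACC on the other strand.
Rnp4F, chrX:5322694-5322794, minus strand: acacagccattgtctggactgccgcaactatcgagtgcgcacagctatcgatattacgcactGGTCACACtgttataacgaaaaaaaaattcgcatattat
Ube4B, chr2L:13019179-13019279, minus strand: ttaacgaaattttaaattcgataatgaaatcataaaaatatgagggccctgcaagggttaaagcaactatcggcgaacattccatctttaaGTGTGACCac
The last pair holds ACTATC, the second word in the ranking of hexamers described further on.
mtSSB, chr3R:16205499-16205599, minus strand: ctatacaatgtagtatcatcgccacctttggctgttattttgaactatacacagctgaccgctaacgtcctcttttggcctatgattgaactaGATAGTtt
spri, chrX:10547139-10547239, minus strand: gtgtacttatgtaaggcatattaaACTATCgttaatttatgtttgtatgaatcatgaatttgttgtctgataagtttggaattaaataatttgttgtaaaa
eEF1gamma encodes a subunit of translation elongation factor 1, RpS29 a protein of the small ribosomal subunit, Fancm a DNA repair helicase, Abl a tyrosine kinase, Ube4B a ubiquitin ligase and mtSSB the mitochondrial single-strand DNA-binding protein. Rnp4F had the Motif 1 core and a DRE in the same window.

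The strongest peak of the class stood upstream of CG14100 (3L, 19590414 to 19590814), with its summit 96 bp from the TSS and a deposited signal of 3165. It ranked 2, 1 and 1 in replicates 1, 2 and 3. The next were at px, which acts in wing vein patterning (203 bp, signal 2406), and at ph-p, a Polycomb group gene (499 bp, 2009). The px peak ranked 3, 4 and 4 and the ph-p peak 8, 8 and 7. CG1888 (218 bp, 1895), lncRNA:CR44619 (410 bp, 1631), the HMG-box factor gene Sox14 (267 bp, 1514) and CG31145 (156 bp, 1319) followed. Next came larp, which encodes an RNA-binding protein (332 bp, 1311), the bZIP factor gene Atf3 (229 bp, 1226) and the reticulon gene Rtnl1 (252 bp, 1214). The other 10 of the 20 strongest were MFS10, the casein kinase gene gish, CG18549, the translocon-associated gene TRAM, CG13921, Hpf1, the prohormone convertase gene amon, the stress-response gene Sesn, the receptor gene moody and CG8788, with signals from 1122 at MFS10 to 872 at CG8788. No replicate ranked any of the 20 below place 73. Of these 20, 16 lay over 100 bp and 11 over 200 bp upstream, and 9 lay inside their own gene, 2 inside another gene and 9 between genes.

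**Figure D1:**
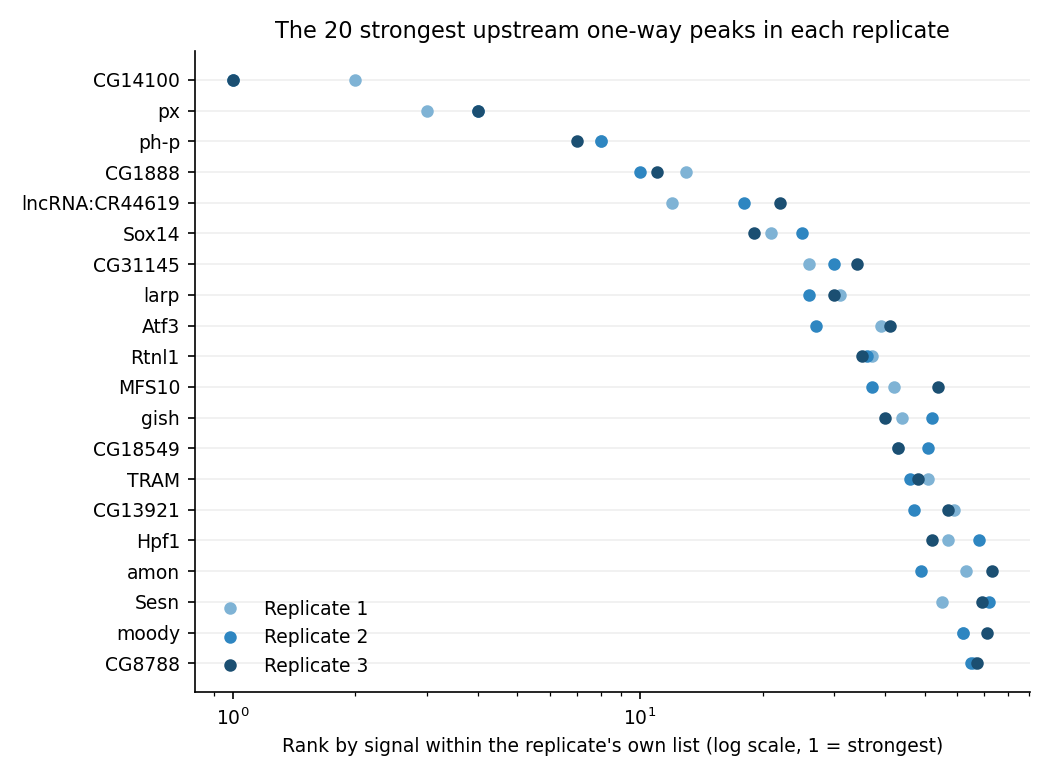
Rank of each of the 20 strongest upstream one-way peaks (rows, strongest at the top) by deposited signal in replicates 1, 2 and 3, on a log axis on which 1 is the strongest entry of that replicate's list. All ranks lie between 1 and 73, and the replicates stay close to each other for each gene.

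Most peaks of the class were among the strongest entries of every replicate. For 591 of 799 peaks (74.0%, 95% Wilson interval 70.8 to 76.9) an entry overlapped among the 3511 strongest of all 3 replicates, against 69.98% (68.4 to 71.5) of all reproducible peaks. A further 151 had such a strong entry in 2 replicates, 56 in 1 and the peak at Atet in none. The Atet peak had weaker entries, at ranks 6521, 3860 and 7322 in replicates 1, 2 and 3. Entries of any strength overlapped 798, 794 and 799 of the peaks in these replicates. The list was selected for agreement between replicates, so these shares are no independent estimate. Summits moved by a median of 11, 13 and 14 bp between the reproducible list and replicates 1, 2 and 3. Across the peaks of the class, Spearman's rho of the signal was 0.81 for replicates 1 and 2 (n = 793), 0.79 for 1 and 3 (n = 798) and 0.84 for 2 and 3 (n = 794). Peaks are not independent replicates, and these values are descriptions.

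A few genes had 3 or more such peaks. Ptpmeg2, a tyrosine phosphatase gene, had 4, with signals of 749, 516, 321 and 169. Rtnl1 also had 4, from 1214 at the strongest to 159 at the weakest. The cAMP phosphodiesterase gene dnc had 3 (826, 365 and 167), and RapGAP1, which encodes a GTPase-activating protein, had 3 (238, 153 and 153), of which 2 lay upstream of the same start. These genes were named after their values were seen.

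Summits sat a median of 158 bp upstream of the TSS (quartiles 82 and 268.5 bp). Weak entries of the class, meaning the 1653 pooled entries of the same position that overlapped no reproducible peak, had a median of 181 bp. In the 3 replicates the median was 167, 171 and 164 bp for strong entries and 182, 195 and 192 bp for weak ones. Right next to the start, within 25 bp, lay 6.13% of the reproducible and 8.35% of the weak summits, and from 76 to 175 bp every 25 bp bin held a larger share of the reproducible ones. Within 200 bp lay 61.8% of the reproducible and 53.8% of the weak summits, and over 400 bp 8.64% and 12.8%. The share within 100 bp did not separate them: it was 28.8%, 27.8% and 30.1% for strong entries and 31.2%, 28.6% and 29.95% for weak ones in replicates 1, 2 and 3. The mean difference was -1.03 percentage points (SD 1.28, n = 3; exact sign-flip permutation test, two-sided p = 0.5), with 2 replicates lower and 1 higher. Counted within 150 bp, the difference was 3.61 points.

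**Figure D2:**
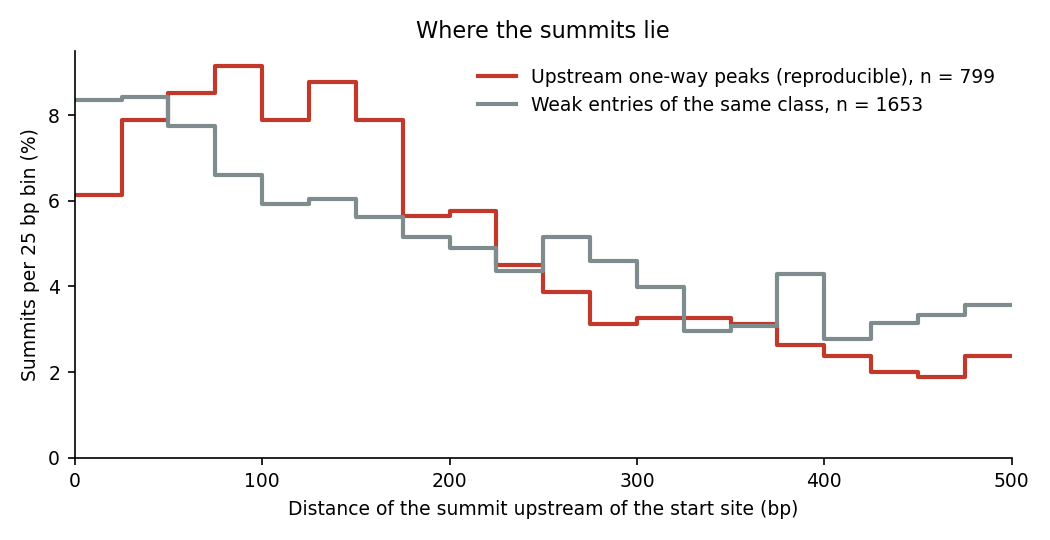
Share of summits in each 25 bp bin (vertical axis, %) by distance upstream of the TSS (horizontal axis, bp) for the 799 upstream one-way peaks and for 1653 weak entries of the same class. Weak summits are most frequent in the 50 bp next to the start, whereas the reproducible ones reach 9.14% at 76 to 100 bp and 8.76% at 126 to 150 bp.

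Many of the promoters were internal ones. The summit lay inside the same gene as the TSS for 256 peaks (32.0%, Wilson 28.9 to 35.4), in 211 cases in an intron and in 45 in an exon. Of the weak entries 27.0% lay inside the same gene, as did 24.0% of positions 158 bp upstream of all 16101 one-way start sites. Inside another gene lay 94 peaks (11.8%), against 19.4% of weak entries and 27.5% of those positions. The remaining 449 (56.2%) were intergenic, and for 346 of these the upstream neighbour ran in the same direction, a tandem arrangement. Tandem intergenic sites made up 43.3% of the peaks, 38.1% of weak entries and 33.6% of all one-way positions. Peaks inside their own gene had a median distance of 207.5 bp and a median signal of 200.0, and intergenic ones 132 bp and 176. The one-way positions all lay 158 bp upstream, whereas the summits ranged from 1 to 499 bp, so these shares are not matched for distance. With a promoter window of 200 bp, 24.9% of the peaks lay inside the same gene.

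Strength went together with base composition, distance and place. The peaks were divided by signal into 5 equal groups (quintiles) of 160, with 159 in the weakest. The median GC content within 50 bp of the summit was 33.7% in the strongest quintile, then 36.6%, 38.1% and 39.1%, and 41.6% in the weakest. Strong summits also lay farther out, at a median of 194 bp in the strongest quintile against 121 bp in the weakest, and 38.1% of them against 27.7% lay inside their own gene. In the replicates' own lists the strongest quintile had a GC content of 32.7%, 33.7% and 33.7% and the weakest 39.6%, 39.6% and 38.6%. The distance was 197.5, 193 and 181 bp in the strongest quintile against 185, 165 and 147 bp in the weakest, and the share inside the same gene 39.9%, 41.8% and 39.5% against 29.9%, 25.7% and 26.1%. The direction was the same in each replicate, but replicates share the same sites, so this shows the spread of the measurement and not of other sites. The GC content also differed in this direction within each of the 3 kinds of place. For peaks inside their own gene the median was 31.7% in the strongest quintile (n = 61) and 39.6% in the weakest (n = 44), for peaks inside another gene 31.7% (n = 20) and 41.6% (n = 15), and for intergenic peaks 34.7% (n = 79) and 41.6% (n = 101). How base composition bears on the recovery of DNA by immunoprecipitation or sequencing was not tested.

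**Figure D3:**
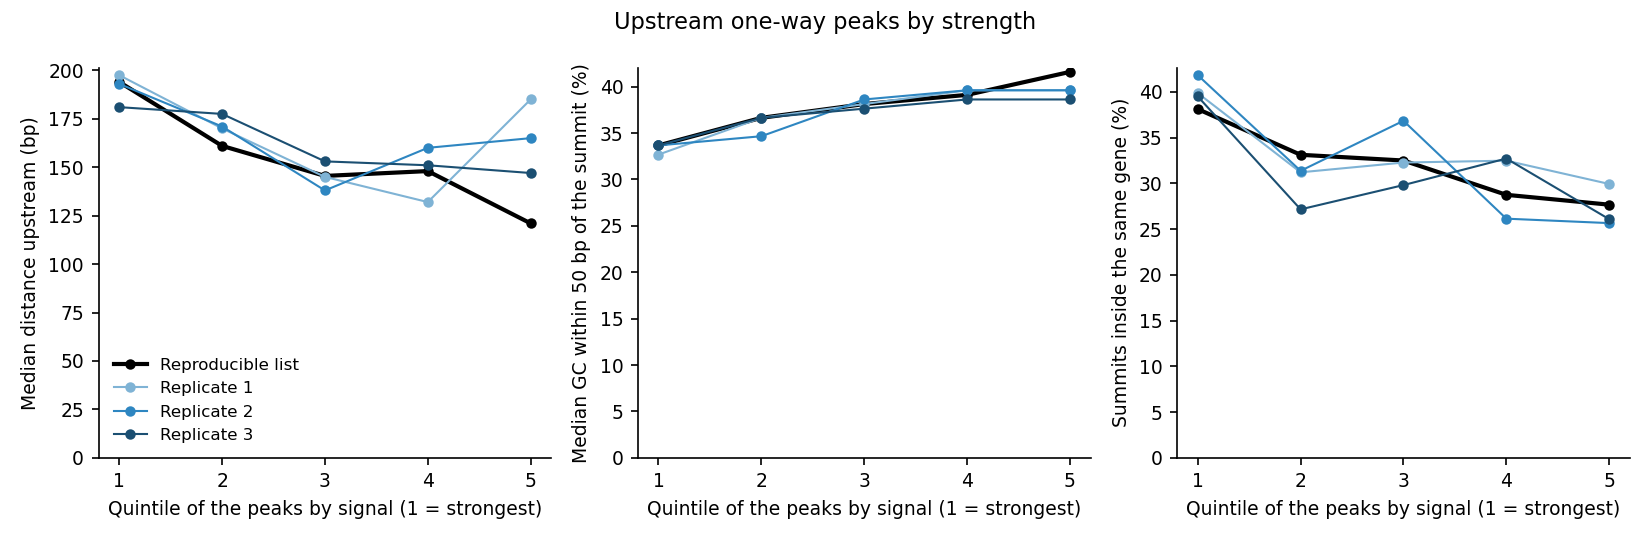
Median distance of the summit upstream of the TSS (bp), median GC content within 50 bp of the summit (%) and share of summits inside the same gene (%), by quintile of the signal from strongest (1) to weakest (5), for the reproducible list and for each replicate's own list. In the reproducible list the GC content is 33.7% in the strongest quintile and 41.6% in the weakest, with the other 3 in between.

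The peaks had a lower GC content than weak entries of the class. The median GC content was 37.6%, 37.6% and 36.6% for strong entries and 42.6%, 44.6% and 42.6% for weak ones in replicates 1, 2 and 3. The mean difference was -5.94 percentage points (SD 0.99, n = 3; exact sign-flip permutation test, two-sided p = 0.25, the smallest it can give), lower in 3 of 3 replicates. Around all one-way starts, at the same distance of 158 bp, the median was 38.6%, and at 150 bp on either side of the summits it was 40.6%. In the reproducible list the median was 37.6% for the class and 35.6% for all reproducible peaks. A low GC content is thus not particular to the class.

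Of the housekeeping elements, the BEAF-32 core was the most frequent at the summits. DRE, the Motif 1 core and Ohler motifs 6 and 7 were rare there. Each word was searched for on either strand in the 50 bp on each side of the summit. CGATA, which also lies inside the DRE, was found at 174 peaks (21.8%, Wilson 19.1 to 24.8), against 18.6% of weak entries and 12.6% of positions upstream of all one-way starts. In the replicates the share was 20.8%, 20.6% and 21.3% in strong entries and 18.3%, 15.6% and 17.4% in weak ones. The mean difference was 3.77 percentage points (SD 1.21, n = 3; exact sign-flip permutation test, two-sided p = 0.25), higher in 3 of 3. DRE was present at 22 peaks (2.75%), the Motif 1 core at 20 (2.50%), Ohler motif 7 at 40 (5.01%) and Ohler motif 6 at 2 (0.25%). At all one-way positions the shares were 0.528% for DRE, 0.280% for the Motif 1 core and 1.00% for Ohler motif 7. In weak entries they were 3.09%, 2.48% and 3.09%. The one-way positions all lie 158 bp upstream of a start, whereas the summits ranged from 1 to 499 bp. The 2 are thus not matched for distance, and shares over a common promoter window are given further on. For DRE and the Motif 1 core the shares in weak entries lay within the Wilson intervals of the reproducible peaks (1.83% to 4.13% and 1.63% to 3.83%), and in the replicates DRE was at 2.92%, 2.23% and 3.09% of strong entries and 2.55%, 2.07% and 2.42% of weak ones. Ohler motif 7 was higher in the strong entries of 3 of 3 replicates as well (mean difference 1.72 percentage points, SD 0.28, n = 3; exact sign-flip permutation p = 0.25).

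GAGAG, the word of GAGA factor, ran the other way at the summit. It was found within 50 bp of 92 summits (11.5%, Wilson 9.48 to 13.9), against 14.3% of weak entries, 15.2% of all one-way positions and 21.0% of the windows 150 bp to either side of the same summits. The GC content of the summits was lower than that of these sets. The words CGCG (13.8% of summits, 21.1% of weak entries) and CACACA (5.88% and 8.95%) were lower as well, while CCAAT was not (18.9% and 18.3%). How base composition bears on these shares was not tested. Over the promoter as a whole, from 150 bp upstream to 50 bp downstream of the TSS, GAGAG was present at 38.7% of the 781 start sites with a peak, 31.5% of those with a weak entry and 27.4% of all one-way starts. The TATA box TATAAA, sought on the gene's strand from 45 to 15 bp upstream of the TSS, was present at 30 of the 781 starts (3.84%, Wilson 2.70 to 5.43). It was present at 5.28% of starts with a weak entry and at 7.503% of all one-way starts, and the replicates' strong entries gave 3.53%, 3.23% and 3.43%. The initiator (TCAGTC or TCAGTT, gene strand, within 10 bp of the TSS) was at 12.2% of starts with a peak, 12.9% of those with a weak entry and 10.6% of all one-way starts. The Motif 1 core, over the same promoter window, was at 50 of the 781 starts with a peak, 5.53% of those with a weak entry and 2.88% of all one-way starts, and Ohler motif 7 at 9.60%, 6.09% and 3.75%. DRE was at 5.12% of starts with a peak, 5.90% of those with a weak entry and 3.25% of all one-way starts, and CGATA at 36.2%, 34.5% and 29.2%.

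All 2080 hexamers, with those that overlap known elements left in, were ranked on 3L, 3R and 4 by their share in 348 peaks against 742 weak entries. The 10 leading words were then counted on 2L, 2R and X (451 peaks, 911 weak entries). On these other arms 7 of the 10 were more frequent in peaks than in weak entries, and 6 of the 10 more frequent than in the flanks, so that several of the leading words did not hold. The share of all 2080 hexamers that was higher in peaks on these arms is not given here, so nothing is read from these counts. How base composition bears on the leading words was not tested. ACTATC, the second in the ranking, was at 7.98% of peaks on the other arms, against 5.60% of weak entries, 3.44% of flanks and 3.07% of all one-way positions. Where a G follows, ACTATC overlaps the BEAF-32 core, which reads TATCG on that strand, as at spri. At such sites it is no separate word, and their share was not counted. TTGCAA was at 7.98%, against 4.61%, 4.32% and 5.30%. GGCTTA, the first in the ranking, was at 4.88%, against 3.07%, 2.88% and 3.76%. Over all arms ACTATC was at 8.64% of the peaks and 9.58% of upstream divergent peaks. At one-way peaks ACTATC was most frequent at the summit itself: the central 20 bp bin held a match in 25 peaks, and the bins 20 bp away held 15 and 11.

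CTTAAA stood 24th in that ranking and was picked out after its values on all arms had been seen, so its shares are given as a description only. It was within 50 bp of 130 summits (16.3%, Wilson 13.9 to 19.0), against 7.92% of weak entries, 10.4% of all one-way positions and 10.4% of the flanks. At upstream divergent peaks the share was 14.4%. On 3L, 3R and 4 the share was 14.7% of peaks and 7.14% of weak entries, and on 2L, 2R and X 17.5% and 8.56%. The central bin held a match in 46 peaks, and the bins 20 bp away in 27 and 25. It had no preferred direction, with 63 peaks matched on the gene's strand alone, 61 on the other alone and 6 on both. It consists mostly of A and T, and the GC content of the summits differed between the same sets. The share of this difference that base composition accounts for was not tested.

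**Figure D4:**
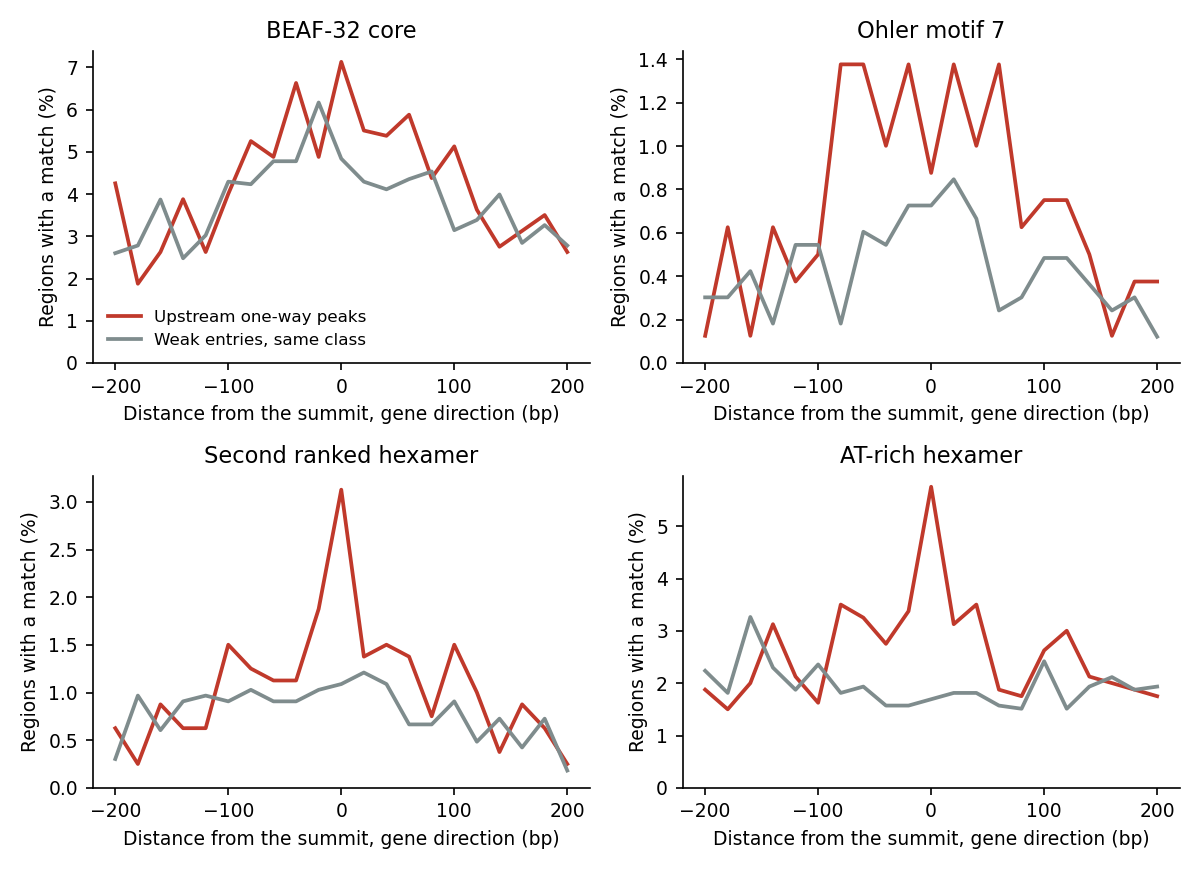
Share of regions with a match (vertical axis, %) in 20 bp bins by distance from the summit in the gene's direction (horizontal axis, bp), for upstream one-way peaks and weak entries of the same class. CTTAAA (AT-rich hexamer) and ACTATC (second ranked hexamer) reach 5.76% and 3.13% in the central bin of the peaks, where the BEAF-32 core reaches 7.13% and Ohler motif 7 0.876%.

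The share of peaks with a known element or with CTTAAA varied with strength. None of the 160 strongest peaks had the Motif 1 core or Ohler motif 7 near the summit, which allows a share of at most 2.34% (upper 95% Wilson bound). In the next 4 quintiles, from stronger to weaker, the Motif 1 core was found at 3, 7, 3 and 7 peaks and Ohler motif 7 at 8, 11, 9 and 12. In each replicate's own list the strongest quintile held 0 peaks with the Motif 1 core and 1 with Ohler motif 7. CGATA was at 25 of the 160 strongest peaks and at 36, 40, 42 and 31 of the following quintiles, so its lowest share was at the top. Matches in the class had a median position 49.5 bp upstream of the TSS for the Motif 1 core, 62 bp for Ohler motif 7 and 63 bp for CGATA. Summits of the strongest quintile lay at a median of 194 bp, against 121 bp in the weakest. A window of 50 bp on each side of a summit at 194 bp or at 121 bp does not reach those positions. The positions come only from matches inside such windows. How distance bears on these counts was not tested. CTTAAA was at 40 of the 160 strongest peaks and at 18 of the 159 weakest. In replicates 1, 2 and 3 it was at 23.4%, 23.5% and 21.6% of the strongest quintile, against 7.64%, 10.53% and 8.70% of the weakest. The size of this difference varied with place and distance. Inside their own gene the shares were 37.7% in the strongest quintile and 11.4% in the weakest, inside another gene 15.0% and 6.67%. For intergenic peaks they were only 17.7% and 11.9%. Up to the median distance they were 15.3% and 6.25%, and beyond it 30.7% and 18.75%.

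**Figure D5:**
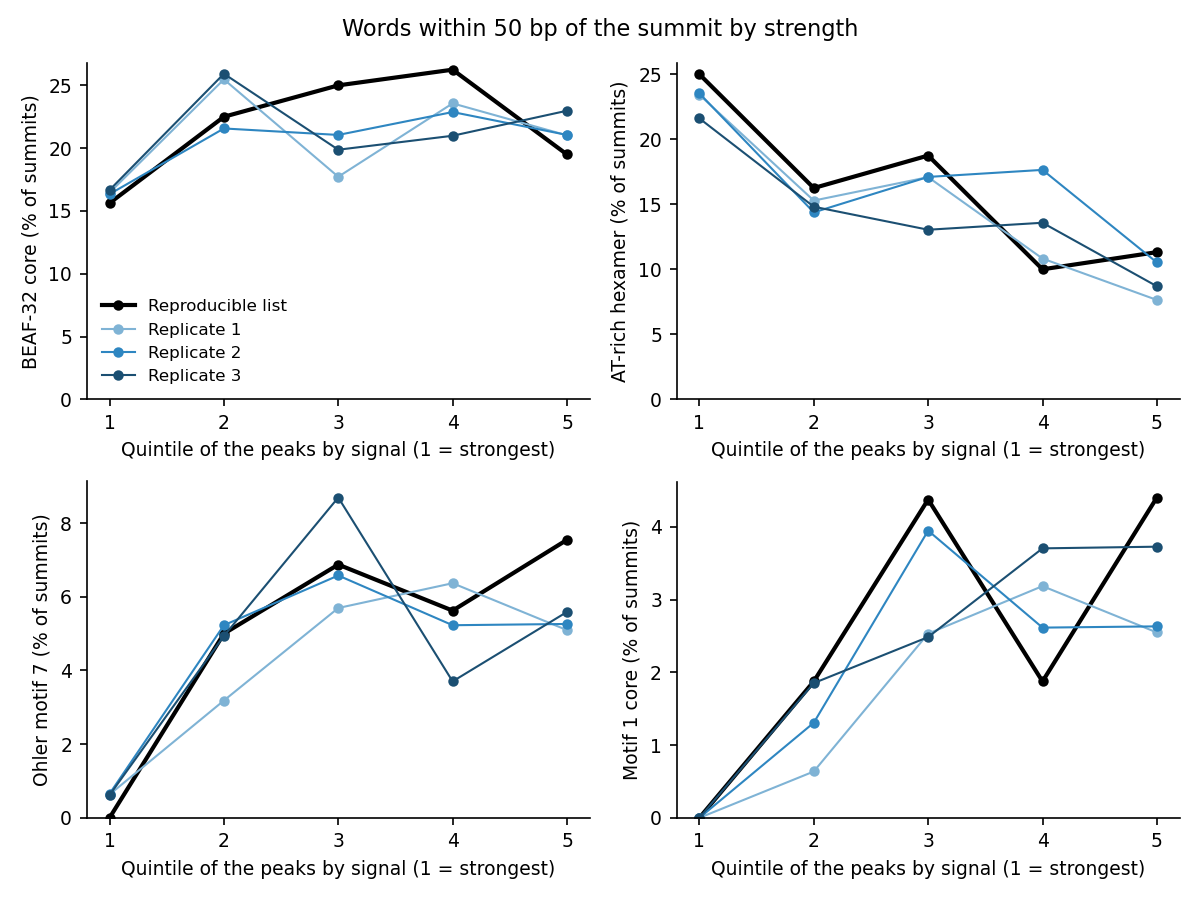
Share of summits with a match within 50 bp (vertical axes, %) to the BEAF-32 core, CTTAAA (AT-rich hexamer), Ohler motif 7 and the Motif 1 core, by quintile of the signal from strongest (1) to weakest (5), for the reproducible list and each replicate's own list. CTTAAA is most frequent in the strongest quintile, where the Motif 1 core is at 0% in all 4 lists.

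Against peaks at divergent promoters, CGATA, DRE and Ohler motif 7 were less frequent at one-way promoters, and the Motif 1 core differed in direction between replicates. CGATA was at 20.8%, 20.6% and 21.3% of upstream one-way entries and at 29.4%, 28.1% and 30.5% of upstream divergent ones in replicates 1, 2 and 3. The mean difference was -8.42 percentage points (SD 0.84, n = 3; exact sign-flip permutation test, two-sided p = 0.25), lower in 3 of 3. DRE differed by -3.76 points (SD 0.07) and Ohler motif 7 by -4.71 points (SD 0.36), also lower in 3 of 3 replicates with an exact permutation p of 0.25 each. The Motif 1 core was at 1.78%, 2.10% and 2.35% of one-way entries and at 3.16%, 1.12% and 2.29% of divergent ones in replicates 1, 2 and 3, lower in 1 replicate and higher in 2. Divergent summits lay closer to the start (median 78 bp), and CGATA matches at one-way peaks had a median position 63 bp upstream of the TSS. With summits within 200 bp alone, the difference in CGATA was -3.80 points, and in the stronger part of the entries it was -2.98 points. For base composition and strength no steady direction was found. In the reproducible list the median GC content was 37.6% at one-way and 35.6% at divergent peaks. Over the replicates it differed by 0.33 points (SD 0.57, exact permutation p = 1) and the median rank percentile, where 100 is the strongest entry, by -0.11 (SD 1.53, exact permutation p = 1), and the sign of both changed between settings. Upstream one-way entries stood higher than downstream one-way ones, at median rank percentiles of 54.1, 55.3 and 55.3 against 40.4, 50.7 and 41.2 in replicates 1, 2 and 3. The mean difference was 10.8 points (SD 5.38, n = 3; exact sign-flip permutation p = 0.25), higher in 3 of 3. Of the 100 strongest reproducible peaks, 37 were upstream one-way peaks, 21 upstream divergent and 3 downstream one-way. In the whole reproducible list these classes made up 22.8%, 21.7% and 5.24% of the peaks, in the same order.

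Of 12700 genes with a one-way start, 756 carried such a peak (5.95%), and of the 9308 protein-coding ones 704 did (7.56%). The share varied between the gene groups that were looked at, which were described by their counts alone. Cytoplasmic ribosomal protein genes, which code for the proteins of the ribosome, carried one at 12 of 40 genes (Wilson interval 18.1% to 45.4%). RpL23A had the strongest (signal 647, 100 bp upstream), then RpS29 (332, 18 bp) and RpL11 (316, 112 bp), and the median of the 12 was 51.5 bp. RpL23A ranked 129, 148 and 119 in replicates 1, 2 and 3, while RpS29 ranked 658, 498 and 605. Glycolysis genes carried one at 5 of 9. Gapdh2, which encodes glyceraldehyde-3-phosphate dehydrogenase, led them (469, 167 bp), then the phosphoglycerate kinase gene Pgk (303, 314 bp) and the hexokinase gene Hex-A (301, 168 bp). Gapdh2 ranked 185, 370 and 301. Cell cycle regulators had a peak at 6 of 18 genes, among them the E2F partner Dp (488, 194 bp), the spindle checkpoint gene BubR1 (244, 106 bp) and the mitotic kinase gene polo (194, 98 bp).

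Other groups, apart from long non-coding RNA genes, had at most 4 genes with a peak. The share over all genes with a one-way start was 5.95%, and 7.56% over the protein-coding ones. Polycomb and trithorax group genes had a peak at 3 of 15, namely ph-p, esc (148, 61 bp), which encodes a subunit of a histone methyltransferase complex, and the chromatin remodeller gene kis (112, 103 bp). Notch pathway genes had one at 3 of 11, namely numb (195, 109 bp), the receptor gene N (142, 137 bp) and the ubiquitin ligase gene neur (125, 13 bp). The EGFR ligand gene spi (504, 176 bp) and the Hippo pathway gene kibra (306, 132 bp) were the 2 of 17 in their list. Among a list of mostly zinc-finger regulators 4 of 15 had one, led by cbt (784, 380 bp), the HMG-box gene bbx (457, 190 bp) and the BTB zinc-finger gene lola (285, 294 bp). Single peaks were found at Taf4, a TFIID subunit gene (266, 87 bp), the small heat shock gene Hsp27 (352, 128 bp), the autophagy gene Atg8a (139, 101 bp), the DNA polymerase gene PolA1 (144, 24 bp), da (130, 118 bp), eIF2A (150, 60 bp), ND-B17 (174, 121 bp), Rpn10 (112, 32 bp) and mRpL13 (116, 81 bp). These stood for 1 of 12 Mediator and TFIID genes, 1 of 17 chaperone genes, 1 of 6 autophagy genes, 1 of 10 replication genes, 1 of 9 sex determination and dosage compensation genes, 1 of 25 initiation factor genes, 1 of 46 respiratory chain genes, 1 of 26 proteasome genes and 1 of 15 mitochondrial ribosomal protein genes.

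At the other end, no peak was found at 80 cuticle protein genes (upper Wilson bound 4.58%) or at 160 chemosensory receptor genes (upper bound 2.34%), families that serve the cuticle and the sense organs. None was found at 11 aminoacyl-tRNA synthetase, 7 insulator protein or 4 splicing factor genes with a one-way start, numbers too small to tell from 5.95%. Genes of long non-coding RNA, tRNA and snoRNA carried few peaks as well. Long non-coding RNA genes had a peak at 45 of 1900 (2.37%, Wilson 1.77 to 3.15), tRNA genes at 2 of 196 (1.02%) and snoRNA genes at 1 of 230 (0.435%). For snRNA genes 1 of 20 had one (Wilson 0.888% to 23.6%), too few to tell from 5.95%. After lncRNA:CR44619 the strongest were lncRNA:CR31044 (839, 110 bp) and lncRNA:CR44810 (758, 162 bp). The tRNA peaks were at tRNA:Gln-TTG-2-1 (320, 240 bp) and tRNA:Thr-AGT-1-4 (119, 105 bp), with snoRNA:185 (190, 34 bp) and snRNA:U6:96Ac (155, 119 bp) beside them.

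The limits of the rule fell among peaks of all strengths. Just inside 500 bp lay the peaks of ph-p (499 bp, signal 2009), CG9743 (497 bp, 858), CG31807 (493 bp, 191) and Wnt6 (492 bp, 110). Just outside lay those of CAP (501 bp, 341), B4 (501 bp, 175), CG8854 (502 bp, 115) and a second peak of lola (504 bp, 228). The nearest head-to-head starts beyond the limit were 1015 bp away for Eno, 1022 bp for MEP-1, 1027 bp for CG9776 and 1032 bp for CG16721. Those just within it were at 997 bp for lama, 991 bp for CG32767, 984 bp for Smg5 and 977 bp for Pax. For 292 of the 799 peaks no start of another gene in the opposite direction lay within 10000 bp upstream. The peaks were spread over the chromosome arms, with 4.55 to 5.46 per 100 one-way starts on 2L, 2R, 3L, 3R and X and 3.05 on chromosome 4, where there were 4 peaks.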

How the data were processed

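Peak lists in narrowPeak format on dm6, deposited for 3 replicates and for the pooled and reproducible sets, were used. The reproducible set had passed an irreproducible discovery rate threshold, per the labels' file listing; the caller, its version and that threshold are not given in the sources. Signal is the authors' deposited peak value, of no stated scale, and summits are the authors' deposited offsets. The replicate lists held 29999, 30000 and 27393 entries on the arms used, the pooled list 23886.

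Start sites came from Ensembl BDGP6.54, release 115, without transposable elements; sequence came from the RefSeq copy of the assembly. Classes were set by summit side and distance (500 bp) and by head-to-head starts of other genes (1000 bp). Each share was also computed per replicate from its 3511 entries of highest signal, and differences tested by an exact sign-flip permutation test. Weak entries of a replicate were those of lower signal, whether or not they overlapped a reproducible peak. Wilson intervals (95%) cover counting only. Words were matched within 50 bp of summits; 21 fixed motifs were searched, and hexamers were ranked with a prior share of 0.01. Python 3.11.15, numpy 2.4.6, pandas 2.3.3 and scipy 1.17.1 were used, and the steps were tested on simulated data.

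The peaks, the 25 gene lists, the motifs and the differences were chosen with earlier results of these data known. The 12 differences between classes comprise 6 listed in the design and 6 added after the data were seen. In the lists 7 older names were updated from synonyms and 6 were not found. Named genes are the 20 strongest peaks, at most 3 per list and 5 per motif, CG8944 and the peaks nearest the limits. Peaks are not replicates. The labels call the replicates biological but do not say whether they were separate embryo collections, so the spread between them may be partly technical.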

Additional observations from a re-analysis of the deposited data

How the results depend on the processing

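Differences in CGATA (against divergent and weak entries), in strength against downstream entries, and in the added comparisons of GC (against weak entries), DRE (against divergent) and Ohler motif 7 (against both) kept their direction under all alternatives run. CTTAAA and ACTATC were picked for their share in peaks, so their direction is no sign of stability. The position difference was 4.90 points with a 1000 bp promoter window, 0.902 with a 500 bp head-to-head distance and 3.61 within 150 bp, but -8.68 with a 200 bp window, -5.26 in the stronger part of the entries and -3.71 within 50 bp, and -1.60 to -0.34 with each replicate left out. The GC difference to divergent peaks was 0 with a 1000 bp window or a 25 bp sequence window, -0.33 with a 2000 bp head-to-head distance, and 0 to 0.495 with a replicate left out. Strength against divergent peaks was 2.60 with a 2000 bp head-to-head distance, 3.18 in the stronger part of the entries, and -0.677 to 0.762 with a replicate left out; without replicate 2 alone it was positive. The class held 494 peaks with a 200 bp window and 433 in the stronger part of the list, as both settings keep fewer peaks. Support in all replicates was 70.3% with an overlap of 50%, and 79.7% to 80.7% when 1 replicate was left out and 2 had to agree. Further alternatives were added after the data were seen. The CGATA share was 26.5% with a 200 bp window, 12.8% within 25 bp and 36.4% within 100 bp of the summit. The share inside the same gene was 24.9% with a 200 bp window. Listed genes with a peak numbered 93 in the main setting, 50 with protein-coding genes only and 52 in the stronger part of the list. Where construction does not show the cause, the cause was not tested. No paired analysis was possible because there is 1 group of samples, with no other to pair it with; differences between classes were taken within each replicate. The unknown depth limits statements on weak sites.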
